A study of Mus musculus with 6 samples.

Results

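Splicing factor genes of the SRSF, HNRNP and SF3 families were compared between 2 groups of mouse blood progenitors: ME, with the leukaemia fusion MLL-ENL, and L28BME, in which LIN28B was combined with that fusion. The members were all protein-coding genes whose symbol places them in 1 of these families, which gave 40 of the 55471 gene IDs in the deposited table: 11 SRSF, 20 HNRNP and 9 SF3 genes. The cells were GMLPs (Lin-, Kit+, Sca1+, CD48+, CD150-) from bone marrow. Both groups were kept in culture with doxycycline (DOX) for 3 days and had 3 RNA sequencing libraries each. The genotypes were given as MLL-ENL and LIN28B*MLL-ENL. The sources used here give neither the promoters that drive the alleles, nor the age of the mice, nor the number of animals per library. Every library held transcripts of both sexes, as described further on, so none appears to come from 1 animal only. Whether libraries share a pool of animals is not stated. The spread between libraries, on which each p-value rests, may therefore be technical. Levels are in TPM, a transcript abundance per length that is scaled to a fixed total in each library.

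Splicing removes introns from pre-mRNA. SR proteins, encoded by the SRSF genes, bind exons through RNA recognition motifs and recruit the spliceosome through a domain rich in arginine and serine. The hnRNP proteins coat nascent RNA and often oppose the use of a splice site, and many also act in mRNA export, stability or translation. SF3A and SF3B are protein complexes of the U2 snRNP, the particle that recognises the intron branch point. Genes for SR proteins and some hnRNPs carry poison exons, whose inclusion sends their own mRNA to nonsense-mediated decay, and genes for SF3B1 and SRSF2 are recurrently mutated in myeloid disease. LIN28B blocks the maturation of let-7 microRNAs and also binds mRNAs directly, those of several splicing regulators among them.

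Most of these splicing factor genes differed little between the groups. Of 40 members, 38 had 1 TPM or more in 3 or more libraries and were tested with limma on log2(TPM + 1). Srsf9 and Hnrnph2 were higher in L28BME, no member was lower, and 36 were not called at a Benjamini-Hochberg adjusted p under 0.05. Over all 13348 genes tested, 14.9% were called, 8.28% as higher and 6.6% as lower. Most members are abundant, and of the tested genes whose mean was 100 TPM or more 21.6% were called, against 2 of 31 such members. At an unadjusted p under 0.05, limma had 4 members higher and 3 lower, or 18.4% of the members against 29.6% of all genes. The groups did not overlap for 9 members, 5 higher and 4 lower, while the values of 36.7% of all tested genes did not overlap. Members' median log2 fold change was 0.01 and that of all tested genes was 0.0033, and the median absolute log2 fold change was 0.07 against 0.14. Among genes whose mean was 100 TPM or more the gap was smaller, at 0.078 for members against 0.096 for all such genes.

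**Figure D1:**
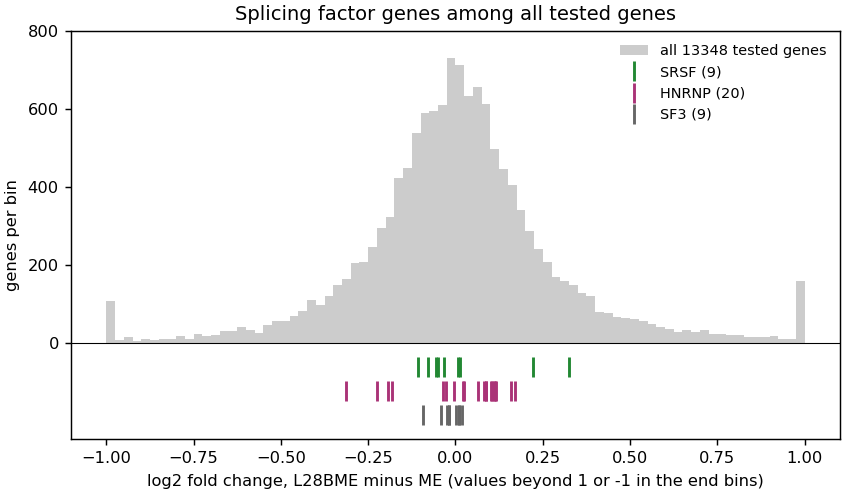
Histogram of the log2 fold change (L28BME minus ME, of log2(TPM + 1)) of all 13348 tested genes, with values beyond 1 or -1 placed in the end bins, and 1 tick below it for each tested member of the SRSF (9), HNRNP (20) and SF3 (9) families. The members lie between -0.31 and 0.33, and the SF3 genes between -0.09 and 0.02.

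A missed threshold does not show that levels were equal, so the intervals are given as well. The 95% interval of the fold change lay within 1.2-fold in either direction, a limit set after the values were seen, for 27 of the 38 members. The same held for 28.6% of all tested genes and 59.8% of tested genes whose mean was 100 TPM or more. All 38 intervals lay within 2-fold. By family, they lay within 1.2-fold for 9 of 9 SF3 genes, 6 of 9 SRSF genes and 12 of 20 HNRNP genes.

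**Figure D2:**
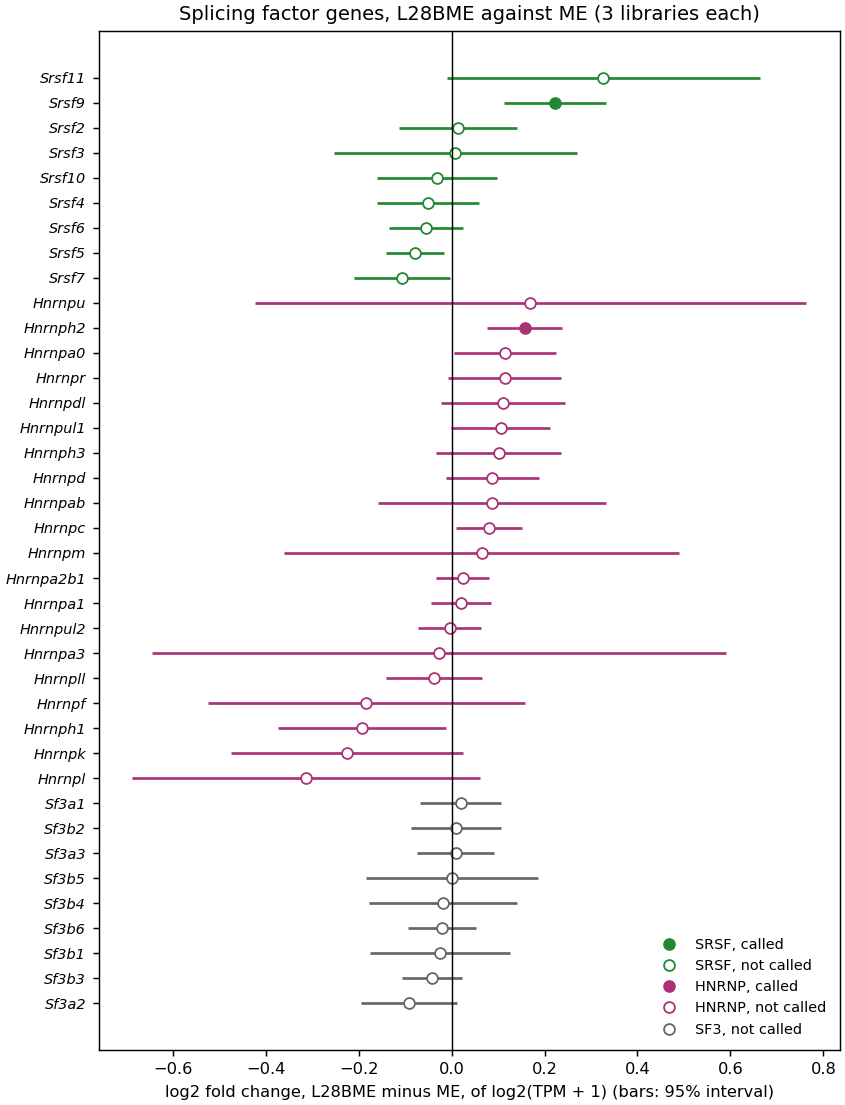
Log2 fold change (x axis, L28BME minus ME, of log2(TPM + 1)) of the 38 tested members by family, with bars for the 95% interval from limma and filled circles for called genes. Srsf9 (0.22) and Hnrnph2 (0.16) are the filled circles; the widest intervals are those of Hnrnpa3 (-0.64 to 0.59) and Hnrnpu (-0.42 to 0.76).

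The summed level of each family is given next. SRSF genes summed to 2919, 2953 and 2871 TPM in the ME libraries and 2853, 2968 and 2916 TPM in the L28BME libraries. HNRNP genes summed to 9417, 9121 and 8886 TPM in ME and 8753, 9313 and 9013 TPM in L28BME. SF3 genes summed to 1540.02, 1537 and 1582 TPM in ME and 1562, 1508 and 1537 TPM in L28BME. For each family the ranges of the groups overlapped, and all members together made up 1.32 to 1.39% of the TPM of a library. These are sums of the TPM listed for the genes themselves. They take in the low listed values of Srsf1 and Hnrnpu and leave out pseudogene copies, both described further on, so they may understate the families.

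**Figure D3:**
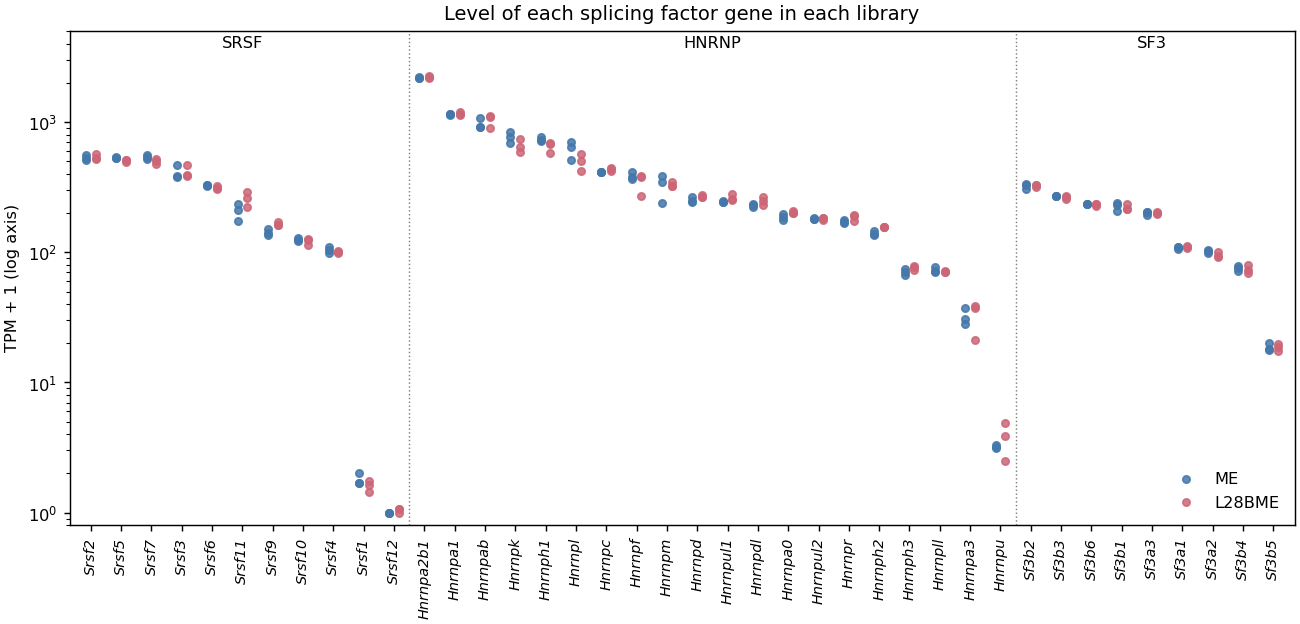
TPM + 1 (log axis) of each of the 40 members in each of the 3 ME and 3 L28BME libraries, ordered within each family by mean level. Levels span from Hnrnpa2b1, at 2179 TPM or more in each library, to Srsf12, at 0.0713 TPM or less, and the points of both groups lie on or beside each other for most genes.

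Among SR proteins, Srsf9 was the called gene. It encodes a small SR protein related to SRSF1, and lies on chromosome 5 (ENSMUSG00000029538, 115327177 to 115333080 on the plus strand of GRCm38). Srsf9 was at 136, 140.5 and 149 TPM in ME and at 162, 163 and 171 TPM in L28BME. Every L28BME library was above every ME library. The log2 fold change was 0.22 (SE 0.045, 95% interval 0.11 to 0.33, limma adjusted p = 0.0256), a 1.17-fold rise. With 1 library left out, the call held only without ME replicate 3 (adjusted p = 0.0288) and was lost without any other, at limma adjusted p = 0.0639 to 0.0825. No annotated gene overlaps its exons and no pseudogene copy was found.

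By the TPM listed for the genes themselves, the most abundant SR genes were Srsf2, Srsf5 and Srsf7. With pseudogene copies added, as described further on, Srsf3 stood above Srsf2 and Srsf7. Srsf2, whose protein binds exonic enhancers, was at 563, 508 and 526 TPM in ME and at 519, 526 and 567 TPM in L28BME, and the groups overlapped fully (log2 fold change 0.01, 95% interval -0.11 to 0.14, limma adjusted p = 0.896). Srsf5 was at 526, 542 and 529.9 TPM in ME and at 508, 497 and 509 TPM in L28BME. Its groups did not overlap, but the difference was small and not called (log2 fold change -0.08, limma adjusted p = 0.101). Srsf7, which with SRSF3 links splicing to mRNA export, was at 519.9, 536 and 557 TPM in ME and at 519, 478 and 501 TPM in L28BME, without overlap by a narrow margin (limma adjusted p = 0.156). Srsf3, the smallest SR protein, was at 379, 466 and 388 TPM in ME and at 393, 465 and 382 TPM in L28BME. In both groups the library with replicate number 2 was the highest for Srsf3, and the group means, 411 and 413 TPM, were alike.

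Srsf11, an SR-related protein gene, had the largest log2 fold change of any member at 0.33, but its libraries differed within groups. It was at 234, 209.6 and 172 TPM in ME and at 224, 289 and 259 TPM in L28BME. One L28BME library lay below the highest ME library, and the gene was not called (SE 0.14, 95% interval -0.01 to 0.66, limma adjusted p = 0.178). Srsf4, Srsf6 and Srsf10 had group means of 103 and 99.6, 326 and 314, and 124 and 121 TPM in ME and L28BME. None of the 3 was called (limma adjusted p = 0.512, 0.326 and 0.734). SRSF10 differs from other SR proteins in that it represses splicing when dephosphorylated.

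The remaining SR genes were not tested because of their low listed levels. Srsf12 was at 0 TPM in 4 libraries, those of ME among them, and at 0.0709 and 0.0713 TPM in L28BME replicates 1 and 2. Srsf1, which encodes the prototype SR protein and is an abundant gene in most cell types, was listed at 0.702, 1.01 and 0.678 TPM in ME and at 0.739, 0.43 and 0.632 TPM in L28BME. The groups overlapped. Hnrnpu, the gene of a likewise abundant nuclear scaffold protein, was listed at 2.13, 2.2 and 2.28 TPM in ME and at 1.5, 2.86 and 3.84 TPM in L28BME (limma adjusted p = 0.693). For Srsf1, the only gene model that shares exonic bases with it was listed at 0 in every library. That of Hnrnpu, Cox20 on the opposite strand, was at 22.1 TPM in L28BME replicate 2 and under 1 TPM in the other 5 libraries. Neither gene had an annotated pseudogene copy. Gapdh, a glycolytic gene of high abundance in most cells, was also listed at low and uneven values, between 39.4 and 139 TPM. Whether the authors' quantification set these values was not tested, and they are not read as the levels of these genes. Hnrnpu passed the filter, so its listed values do enter the counts, intervals and medians of the 38 tested members.

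**Figure D4:**
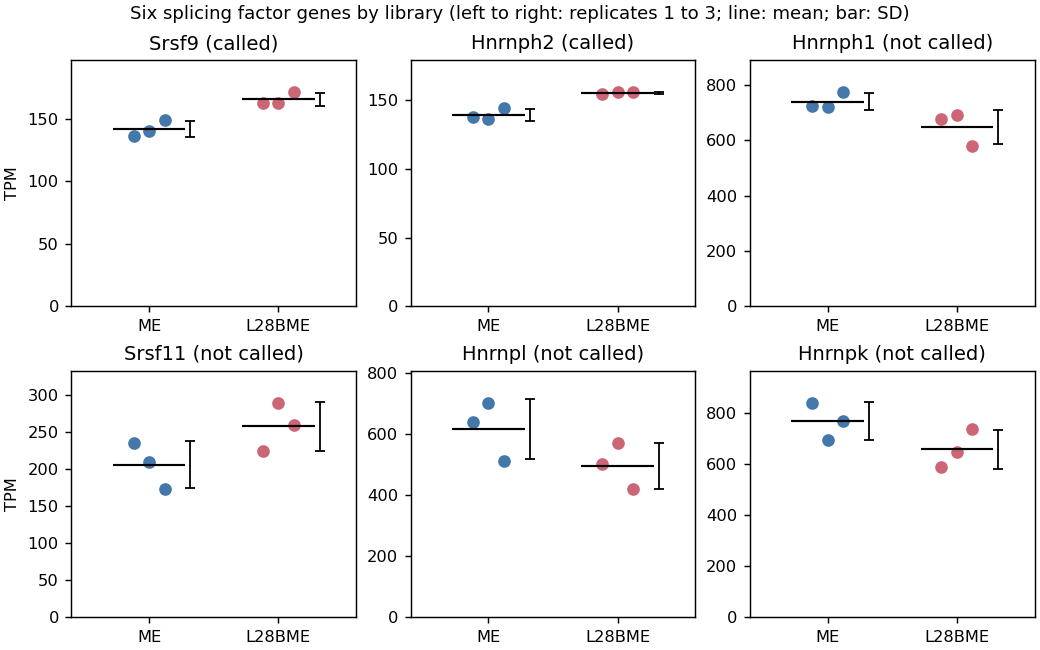
TPM of Srsf9, Hnrnph2, Hnrnph1, Srsf11, Hnrnpl and Hnrnpk in each library (replicates 1 to 3 from left to right), with the group mean (line) and SD (bar beside it, n = 3). The groups are apart for Srsf9, Hnrnph2 and Hnrnph1, and overlap for Srsf11, Hnrnpl and Hnrnpk.

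In the hnRNP F/H group, whose proteins bind runs of G, Hnrnph2 was the called gene. Hnrnph2 lies on chromosome X (ENSMUSG00000045427, 134601179 to 134607060 on the plus strand of GRCm38) and was at 137, 136 and 144 TPM in ME and at 154, 155 and 156 TPM in L28BME. The groups did not overlap, and the log2 fold change was 0.16 (SE 0.033, 95% interval 0.08 to 0.24, limma adjusted p = 0.0283), a 1.12-fold rise. As with Srsf9, the call held only without ME replicate 3 (adjusted p = 0.0354), and limma adjusted p was 0.08 to 0.0904 without any other library. Hnrnph1, the more abundant relative, was at 724, 719 and 773 TPM in ME and at 676, 691 and 578 TPM in L28BME. Its groups did not overlap either, yet the gene did not pass (log2 fold change -0.19, SE 0.074, limma adjusted p = 0.147). The ratio of Hnrnph2 to Hnrnph1 was 0.190, 0.189 and 0.186 in ME and 0.228, 0.225 and 0.269 in L28BME. That ratio was looked at after the levels were seen and is given without a test.

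All 6 libraries held transcripts of both sexes, which bears on an X-linked gene. Xist, the RNA that coats the inactive X, had means of 47.5 ± 1.85 and 61.6 ± 1.43 TPM in ME and L28BME (mean ± SD, n = 3; limma adjusted p = 0.00447). The Y-linked Ddx3y was at 36.9 ± 2.4 and 35.2 ± 4.53 TPM (limma adjusted p = 0.697). Kdm5d was at 16.6 ± 0.822 and 15.4 ± 1.32 TPM (limma adjusted p = 0.432). Eif2s3y was at 76.8, 72.4 and 70.6 TPM in ME and at 67.6, 67.0 and 65.4 TPM in L28BME, without overlap and not called (limma adjusted p = 0.0993). Any part of this in the Hnrnph2 values was not tested. Hnrnph3 had means of 70.1 ± 3.85 TPM in ME and 75.2 ± 3.15 TPM in L28BME. Hnrnpf was at 411, 367 and 379.9 TPM in ME and at 270.4, 385 and 376 TPM in L28BME, so that 1 L28BME library lay far below the rest (log2 fold change -0.18, 95% interval -0.53 to 0.16, limma adjusted p = 0.44).

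The A/B hnRNPs, which bind UAG-containing silencers, include the most abundant members, Hnrnpa2b1 and Hnrnpa1, which varied little, while Hnrnpa3, described with its copies further on, had the largest SE of any tested member. Hnrnpa2b1 was at 2202, 2209 and 2179 TPM in ME and at 2237, 2271 and 2192 TPM in L28BME (log2 fold change 0.02, 95% interval -0.03 to 0.08, limma adjusted p = 0.553). Hnrnpa1 was at 1157, 1138 and 1152 TPM in ME and at 1155, 1197 and 1144 TPM in L28BME (log2 fold change 0.02, 95% interval -0.04 to 0.08, limma adjusted p = 0.657). For both genes the groups overlapped, and the 95% interval of the fold change was 0.98 to 1.06 for Hnrnpa2b1 and 0.97 to 1.06 for Hnrnpa1. Hnrnpa0 had means of 187 ± 9.95 and 203 ± 3.58 TPM in ME and L28BME (n = 3; limma adjusted p = 0.152). Its groups did not overlap, at 197, 177 and 187 against 201, 207 and 200.3 TPM.

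Genes of the D-like hnRNPs, which include the AU-rich element binding protein AUF1 (Hnrnpd), had slightly higher means in L28BME and overlapped between groups. Hnrnpd had means of 252 ± 11.7 and 268 ± 5.34 TPM, Hnrnpdl of 229.9 ± 6.69 and 249 ± 16.8 TPM, and Hnrnpab of 972 ± 93.7 and 1034 ± 111 TPM in ME and L28BME. None was called (limma adjusted p = 0.217, 0.244 and 0.616). Hnrnpc, which encodes a protein that binds U tracts, was at 410.2, 415 and 410.5 TPM in ME and at 437, 447 and 424 TPM in L28BME. Its groups did not overlap, with a log2 fold change of 0.08 (limma adjusted p = 0.125).

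Hnrnpl and Hnrnpk had the lowest fold changes of any member and were not called. Hnrnpl, whose protein binds CA repeats, was at 641, 704 and 511 TPM in ME and at 501, 570.2 and 420.1 TPM in L28BME (log2 fold change -0.31, SE 0.15, 95% interval -0.69 to 0.06, limma adjusted p = 0.235). Hnrnpk, a poly(C)-binding protein gene, was at 838, 692 and 769 TPM in ME and at 587, 646 and 737 TPM in L28BME (log2 fold change -0.22, SE 0.10, limma adjusted p = 0.208). In both cases 1 L28BME library lay above the lowest ME library. The spread within groups was 15.1 to 15.9% of the mean for Hnrnpl and 9.53 to 11.5% for Hnrnpk, against 0.700 to 1.78% for Hnrnpa2b1.

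The other hnRNP genes did not pass the test. Hnrnpll, known for the splicing of Ptprc (CD45) in lymphocytes, had means of 72.2 ± 3.14 and 70.3 ± 0.645 TPM in ME and L28BME. Hnrnpul1 and Hnrnpul2, relatives of Hnrnpu, were at 244 ± 3.32 and 263 ± 14.1 TPM, and at 180.5 ± 1.4 and 180.0 ± 2.76 TPM. Hnrnpr was at 171 ± 4.36 and 185 ± 10.6 TPM. Hnrnpm was at 343, 387 and 238 TPM in ME and at 325, 348 and 321 TPM in L28BME. Its lowest library, ME replicate 3, widened the 95% interval to -0.36 to 0.49. Hnrnpm shares exonic bases on the same strand with March2, a ubiquitin ligase gene, which was at 26.6, 17.6 and 37.7 TPM in ME and at 25.1, 38.03 and 34.05 TPM in L28BME. Its part in the Hnrnpm values was not tested.

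SF3 genes had the smallest differences of the 3 families. The median absolute log2 fold change of the 9 genes was 0.02, none was called, and at an unadjusted p under 0.05 limma also had 0 of 9. Sf3b1, the branch point binding subunit, was at 208, 232 and 237 TPM in ME and at 234, 215 and 215 TPM in L28BME (log2 fold change -0.02, 95% interval -0.17 to 0.13, limma adjusted p = 0.833). Sf3b2 was the most abundant, at 330.05, 308 and 331 TPM in ME and at 329, 316 and 330.1 TPM in L28BME (limma adjusted p = 0.906). Sf3b3 was at 269.7, 271 and 272 TPM in ME and at 268, 258 and 263 TPM in L28BME. These groups did not overlap, but the log2 fold change was -0.04 and not called (limma adjusted p = 0.346). Sf3a2 had the largest difference of the family, at 101, 98.5 and 103 TPM in ME and at 93.5, 91.4 and 98.9 TPM in L28BME, with 1 L28BME library above the lowest ME library (log2 fold change -0.09, limma adjusted p = 0.213). It shares exonic bases with Plekhj1 on the opposite strand, at 36.7, 43.5 and 30.7 TPM in ME and 33.4, 51.1 and 36.7 TPM in L28BME. Over the alternative fits on all libraries, some of which sum overlapping genes, the Sf3a2 log2 fold change ranged from -0.11 to -0.03. None called it.

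Levels of the SF3 genes, which TPM gives per length, were unequal, and the ratios of both groups lay within their spread of each other. Relative to Sf3b1, Sf3b2 stood at 1.44 ± 0.133 in ME and 1.47 ± 0.0641 in L28BME (mean ± SD, n = 3). Sf3b3 stood at 1.2 ± 0.0795 and 1.19 ± 0.0413, and Sf3b6, the subunit at the branch site adenosine, at 1.04 ± 0.0792 and 1.04 ± 0.0477. The ratio was lower for Sf3b4 (0.330 ± 0.0356 and 0.331 ± 0.0336) and lowest for Sf3b5, the smallest subunit (0.078 ± 0.00505 and 0.0796 ± 0.00801). In GENCODE the Sf3b5 transcript has 3841 bases, of which 300 are 3′ UTR, and TPM divides by length. The part of that length in the low ratio was not tested. Among SF3A subunits, Sf3a3 stood at 0.884 ± 0.0366 and 0.905 ± 0.0294, Sf3a1 at 0.478 ± 0.0396 and 0.492 ± 0.0191, and Sf3a2 at 0.448 ± 0.0309 and 0.428 ± 0.0303. The subunits of SF3A and SF3B are present in equal number in the assembled particle, and mRNA levels give no measure of the proteins.

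Several members have processed pseudogenes, copies of their mRNA in the genome, and the table lists TPM for many of those copies. Whether such TPM comes from transcribed copies or from reads of the member gene cannot be told apart here. A copy was counted where an annotated pseudogene matched the coding sequence at 90% identity or more over at least 200 bases, which held for 84 pseudogenes of 17 members. Hnrnpa3 was at 36.4, 30.01 and 26.9 TPM in ME and at 37.5, 20.1 and 36.7 TPM in L28BME, while its 38 copies summed to means of 248 and 242 TPM, or 88.7% of the joint value. For Hnrnpk, 2 copies held 25.8% of the joint value. The share was 30.2% for the 5 copies of Srsf3, 21.3% for the single copy of Srsf5, 21.04% for the 2 copies of Srsf10 and 12.3% for the 17 copies of Hnrnpa1. The aligned bases of Hnrnpa1 and its copy Gm10052 were identical over all 752, so reads from that stretch cannot tell them apart.

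The coding sequences of Srsf3 and Hnrnpk and of their most abundant copies are shown because so few bases separate them. Srsf3 and Gm9761 (chromosome 3) differ at 2 of 492 aligned bases, with 247 identical bases in a row at most. Hnrnpk and Gm7964 (chromosome 7) differ at 11 of 1378, with 568 identical bases in a row at most. Each line gives 60 bases in the sense direction from the GENCODE transcripts of GRCm38, at coding positions 218 to 277 of Srsf3 and 554 to 613 of Hnrnpk, with differing bases in capitals.
Srsf3: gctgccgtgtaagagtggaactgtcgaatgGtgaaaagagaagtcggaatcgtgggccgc
Gm9761: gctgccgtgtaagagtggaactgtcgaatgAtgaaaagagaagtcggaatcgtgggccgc
Hnrnpk: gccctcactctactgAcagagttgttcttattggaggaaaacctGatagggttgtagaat
Gm7964: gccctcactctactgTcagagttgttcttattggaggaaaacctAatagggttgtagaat

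With the copies added, no further member was called and the uneven values of Hnrnpa3 evened out. Hnrnpa3 with its copies was at 292, 286 and 259 TPM in ME and at 279, 272 and 269.5 TPM in L28BME (log2 fold change -0.03, SE 0.051, against SE 0.25 for the gene alone; limma adjusted p = 0.784). Hnrnpk with its copies was at 1079.8, 947 and 1025 TPM in ME and at 841, 895 and 967 TPM in L28BME (log2 fold change -0.18, limma adjusted p = 0.149). Srsf3 with its copies was at 594 ± 50.1 and 587 ± 36.8 TPM, and Srsf5 with its copy at 668 ± 7.47 and 649.8 ± 4.92 TPM (limma adjusted p = 0.909 and 0.304). Summing the copies was chosen after the data were seen.

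**Figure D5:**
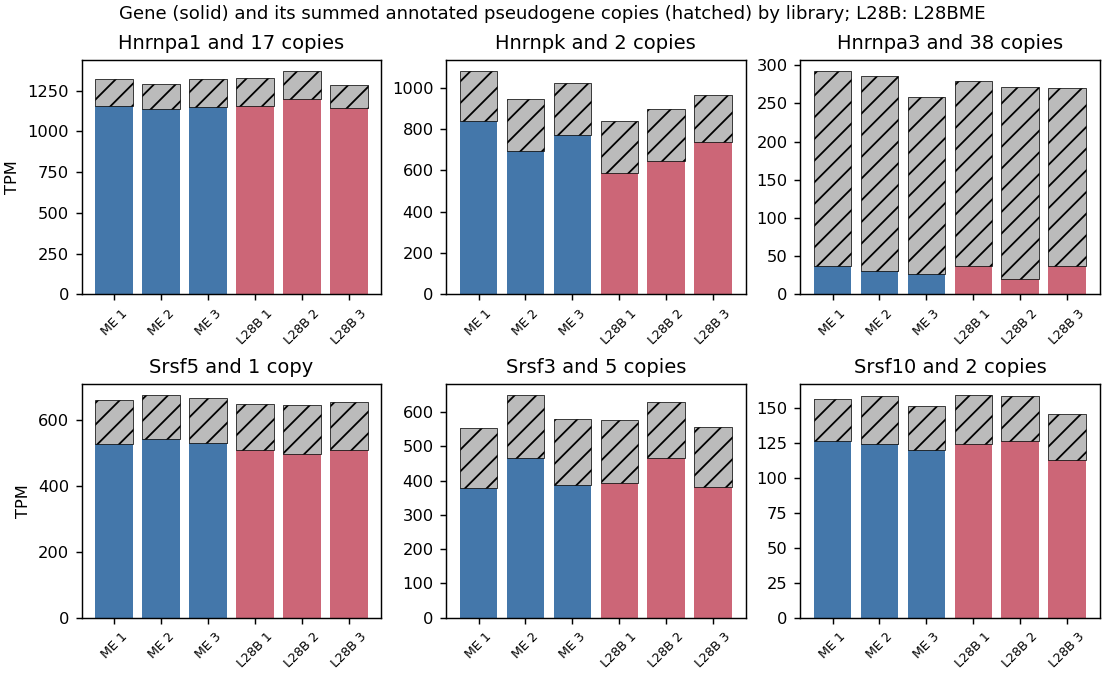
TPM of 6 members (solid bars) and of their annotated pseudogene copies summed on top (hatched) in each library. Copies hold 88.7% of the joint value of Hnrnpa3, 25.8% for Hnrnpk, 30.2% for Srsf3, 21.3% for Srsf5, 21.04% for Srsf10 and 12.3% for Hnrnpa1.

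Because LIN28B acts on let-7, sites for let-7 were sought in the 3′ UTRs of the members. The mature let-7 microRNAs in RefSeq (GRCm38.p6) share 1 seed, bases 2 to 8, in capitals here for let-7a, with the only matching site of a member below it. That site lies in the longest annotated 3′ UTR of Hnrnpr (chr4:136353026-136353055, plus strand, GRCm38, transcript from GENCODE), with the seed match in capitals.
mmu-let-7a-5p: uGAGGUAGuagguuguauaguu
Hnrnpr: aatagctcttttgactacagacCTACCTCt

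A match to CTACCTC was thus found in 1 of 40 members, or 2.5%, against 10.5% of the tested protein-coding genes with an annotated 3′ UTR, searched on the sense strand of the longest 3′ UTR of each gene. The median length of that UTR was 1075 bases for members and 1146 bases for all of these genes. In Hnrnpr the site is at position 13020 of a 3′ UTR of 19419 bases, and the gene was at 169, 175 and 167 TPM in ME and at 188, 194 and 173 TPM in L28BME (log2 fold change 0.11, limma adjusted p = 0.189). Neither Srsf9 nor Hnrnph2 had a match. The motif GGAGA, which LIN28 proteins are known to bind in mRNAs, was counted in 1 sense transcript per gene, that with the longest 3′ UTR. For some genes that transcript is short, as for Hnrnpm, with 1130 bases of which 758 are 3′ UTR. GGAGA occurred at a median of 1.58 per kb for members and 1.93 per kb over all. For Srsf9 and Hnrnph2 its density was 0.861 and 0.864 per kb. These are counts of letters and not of bound sites.

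Annotated transcripts subject to decay were common among SRSF genes and not among SF3 genes. GENCODE lists a transcript subject to nonsense-mediated decay for 20 of 40 members, or 50.0%, against 30.3% of tested protein-coding genes. The figure was 9 of 11 for SRSF genes, with Srsf10 and Srsf12 as the exceptions, 10 of 20 for HNRNP genes and 1 of 9 for SF3 genes, where it was Sf3b1. Retained-intron transcripts were listed for 29 of 40 members, or 72.5%, against 60.7%. Gene TPM sums over productive and unproductive transcripts, so a change in their proportion cannot be read from these data.

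Other splicing genes were described from 9 lists of the pathway. Of 183 listed genes outside the 3 families, 176 were tested, 11 were higher in L28BME and 1 was lower, or 6.82% called against 14.9% of all tested genes (8.28% higher and 6.6% lower). Their median log2 fold change was 0.0022. Among listed genes that were not tested, Sf1, Celf1 and Snrpn were listed at 0 TPM in every library. Srpk3, Snrnp40 and Usp39 had group means under 1 TPM. Whether the authors' quantification set these values was not tested. Dhx8, a helicase that releases spliced mRNA, rose from 47.1 ± 0.875 to 59.7 ± 2.01 TPM (log2 fold change 0.33, limma adjusted p = 0.00496), and Srek1, an SR-related protein gene, from 79.1 ± 6.44 to 107 ± 3.34 TPM (limma adjusted p = 0.00863). Both calls held without any 1 library. With the replicate number added to the fit, the Srek1 call was lost (limma adjusted p = 0.0515). That of Dhx8 held in every alternative described further on.

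Within the lists, 2 of 20 SR-related activators were higher, Srek1 and Srrm2. Srrm2, a core protein of nuclear speckles, rose from 195 ± 36.5 to 276 ± 4.25 TPM (log2 fold change 0.51, limma adjusted p = 0.0423). With genes that overlap it on either strand summed, its log2 fold change was 0.18 and the call was lost (limma adjusted p = 0.10). Of 33 tested RNA-binding regulators and hnRNPs with other symbols, 3 were higher: Rbm4 (16.5 ± 0.428 to 20.6 ± 1.14 TPM), the paraspeckle gene Pspc1 (28.6 ± 1.55 to 38.8 ± 4.45 TPM) and Taf15, which encodes an RNA-binding protein (221 ± 7.23 to 244 ± 4.55 TPM). Among 28 Sm, LSm and snRNP assembly genes, Coil, which encodes the Cajal body protein coilin (15.8 ± 0.174 to 19.04 ± 0.651 TPM), and Clns1a (237 ± 5.93 to 259 ± 2.23 TPM) were higher. Lsm5, a subunit of the ring on U6 snRNA, was lower (103 ± 2.6 to 87.3 ± 5.5 TPM). Of 6 U1 snRNP genes, Prpf40b was higher (8.57 ± 1.3 to 16 ± 3.5 TPM), and of 32 tri-snRNP and Prp19 complex genes, Dhx8 and Prpf18 (35.3 ± 2.23 to 45.6 ± 4.12 TPM) were. Rnps1, 1 of 18 genes of the exon junction complex and nonsense-mediated decay, rose from 131 ± 3.92 to 151 ± 4.26 TPM. Except for Dhx8 and Srek1, each of these calls was lost without 1 or more of the 6 libraries. With each library left out in turn, Coil, Rbm4 and Clns1a were called in 0 of 6 fits. Lsm5, Prpf18, Prpf40b, Pspc1, Srrm2 and Taf15 were each called in 1 of 6, and Rnps1 in 3 of 6. None was called among 12 genes of SR protein kinases, phosphatases and nuclear import, 18 other U2 snRNP and related genes, or 9 genes of the minor spliceosome. At an unadjusted p under 0.05, limma had 0, 2 and 0 of these.

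Small lists that overlap the families gave no called gene. Among regulators whose mRNAs LIN28 proteins are known to bind, Tardbp was at 206 ± 44.0 and 222 ± 7.8 TPM, and Tia1 at 38.7 ± 3.29 and 55.6 ± 15.2 TPM (limma adjusted p = 0.615 and 0.143). Hnrnpf, described above, is also on that list. Binding of LIN28 to these mRNAs is known to act on protein output, which was not measured. Of 4 tested MYC targets, 0 were called, and Ptbp1 was at 305 ± 43.1 and 363 ± 54.2 TPM (limma adjusted p = 0.278). Myc itself was at 289 ± 17.0 and 323 ± 34.0 TPM (limma adjusted p = 0.259), while its paralog Mycn rose from 27.9 ± 1.43 to 52.9 ± 2.02 TPM (log2 fold change 0.90, limma adjusted p = 0.00056). Of 7 factors mutated in myeloid disease, 0 were called, and 3 had an unadjusted p under 0.05. The nearest to the threshold were Luc7l2 (157 ± 11.7 and 188 ± 10.4 TPM) and U2af1 (321 ± 7.71 and 297 ± 7.04 TPM), with limma adjusted p = 0.0587 and 0.0718.

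Mitochondrial RNA and marker genes of several blood cell types differed between the groups. Between 13215 and 13288 genes per library were at 1 TPM or more, and mitochondrial RNA was 4.12 to 4.35% of the TPM in ME and 4.49 to 4.85% in L28BME, without overlap. Lin28b was at 0 in all ME libraries and between 11.2 and 11.9 TPM in those of L28BME. Of the sort markers, Kit was at 94.1 ± 15.7 and 79.2 ± 8.1 TPM, Cd48 at 297 ± 5.29 and 228 ± 2.24 TPM and Ly6a (Sca1) at 10.6 ± 1.09 and 2.07 ± 0.97 TPM, while Slamf1 (CD150) was under 1 TPM throughout. On the full list of 5 progenitor markers, 1 was called higher (Flt3) and 3 were called lower (Cd48, Ly6a and Cd34). The summed level of 6 megakaryocyte markers was 81.3 to 85.2 TPM in ME and 137 to 156 TPM in L28BME, with 5 higher. For 8 neutrophil markers it was 37.8 to 39.5 and 68.5 to 75.4 TPM, with 3 of 5 tested higher. For 7 B cell markers it was 30.6 to 32.3 and 58.8 to 62.2 TPM, with 1 of 3 tested higher (Cd79b). The median log2 fold change of those 3 was -0.03. For 6 monocyte and macrophage markers the sum was 55.3 to 60.7 and 72.1 to 73.6 TPM. Of 5 tested, 2 were higher and 1 was lower. For 6 mast cell and basophil markers the sum was 469.5 to 502 and 393 to 407 TPM, with 2 lower. Over all tested genes 14.9% were called. Erythroid markers summed to under 9 TPM and T and NK cell markers to under 1 TPM, and 4 of the 7 latter were at 0 in every library. Of 15 cell cycle genes, 2 were higher, and their sum was 3952 to 3983 and 3980 to 4015 TPM. The part of these differences in the levels of Srsf9 and Hnrnph2 was not tested, and in bulk RNA fewer cells of a type and less RNA per cell cannot be told apart.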

How the data were processed

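RNA of 3 ME and 3 L28BME libraries was sequenced from stranded mRNA libraries, per the labels' protocols. The authors deposited 1 table of TPM per gene and library, and the tools named in the submitters' processing notes are bcl2fastq, HISAT2, StringTie and DESeq2 with GRCm38. Versions, annotation release and use of strand are not stated there. The GC content of each gene in percent was deposited by the authors in the same table, and served an alternative that removes a GC trend. TPM holds no read depth, so no counting error is given. The libraries summed to 999919 to 999996 TPM.

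Of the 60496 entries, the one with the highest total was kept for each of 55471 gene IDs, and genes at 1 TPM or more in 3 or more of 6 libraries (13348) were tested with limma 3.58.1 (R 4.3.3) on log2(TPM + 1) with an intensity trend, two-sided, called at a Benjamini-Hochberg adjusted p under 0.05 over all genes tested. A fold change on this scale understates that of low genes. The fit was tested on simulated data whose planted changes were larger than those of any member, so that test does not cover changes as small as theirs. Pseudogene copies were found with BLAST 2.17.0, and positions and transcripts come from GENCODE M21. The members and lists were chosen with earlier results of these data known. Genes given library by library were, by rule, every called member and in each family the 2 most abundant and the 2 with the largest difference. Called genes of the other splicing lists are given by group means. Further members, Gapdh, March2, Xist and the Y-linked genes were added after their values were seen. Alternatives changed the pseudocount, filter, scaling, limma options and gene set, added the replicate number, or left out each library. A GC correction and sums over overlapping genes or pseudogenes were added after seeing the data.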

Additional observations from a re-analysis of the deposited data

How the results depend on the processing

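In limma, 2 members were higher and 0 lower (4 and 3 at an unadjusted p under 0.05), as were 1105 and 881 of all genes and 11 and 1 of the other splicing genes. Leaving out 1 library gave 0 to 2 members higher and 0 lower, 592 to 694 and 447 to 566 of all genes, and 3 to 6 and 0 to 1 of the other splicing genes. Without an intensity trend 0 members were higher, and 7 other splicing genes were higher and 0 lower. With no filter on low values 5 of these were higher and 0 lower, and 2 were lower with upper quartile scaling and with overlapping genes on either strand summed. Equal replicate numbers are not stated to pair libraries, and same-numbered libraries did not deviate together (r = -0.0743 to -0.0320 over genes), so the replicate block shows only a shared number. With the replicate block, 1 member was higher (Srsf9) and 1 lower (Hnrnpl, limma adjusted p = 0.0213), with 548 and 400 of all genes and 2 and 0 other splicing genes. Log2 fold changes near 0 changed sign: Sf3b2 was at -0.00562 and Srsf2 at -0.00167 with upper quartile scaling, Srsf2 was at -0.00662 with genes on either strand summed, and with 1 library left out Sf3b2 ranged from -0.0251 to 0.0304 and Srsf2 from -0.0260 to 0.0539. The cause of these changes was not tested, beyond the smaller number of libraries when 1 is left out. Read depth cannot be recovered from TPM, and 3 libraries a group limit the precision.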
